A study of Homo sapiens with 4 samples.

Results

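The nectin and CADM genes encode related cell-surface adhesion molecules of the immunoglobulin superfamily. A list of 9 genes was taken, and all 9 were found among the 57820 gene rows of the count files: NECTIN1, NECTIN2, NECTIN3 and NECTIN4 (PVRL1 to PVRL4 in the older annotation), PVR, and CADM1, CADM2, CADM3 and CADM4. RNA came from SY5Y, a human neuroblastoma (NB) cell line with wild type MYCN that is a single established line, 12 h after treatment. The 2 control libraries were from cells given the solvent DMSO, and the 2 treated libraries from cells given SGSS05-NS, labelled at 3 μM. The study reports its RNA-seq for SGSS05-NS3, which it describes as a covalent inhibitor of the histone methyltransferase SETD8. SGSS05-NS in the labels is taken here as that compound, although the study also lists a compound named SGSS05-NS. In the study, SGSS05-NS3 inhibited other methyltransferases too, at higher concentrations than SETD8. The study's methods give a lower dose for RNA-seq of SY5Y cells, while its legends for these data give the same 3 μM as the labels. The study states that the replicates were independent biological ones, and no genotype or agent other than the compound separates the groups. The genes were chosen by their names and selected on their counts and fold changes in the SGSS05-NS against DMSO contrast, which were known when the list was made. Their changes in that contrast are therefore a description, with no test of the family, and whether a gene passed the threshold of the fit across all genes is given only as a label.

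Nectins bind each other across neighbouring cells through immunoglobulin-like domains, and inside the cell they hold the actin-binding protein afadin, which joins them to the cadherin-based adherens junction. PVR (also CD155 or nectin-like molecule 5) and nectin-2 are also read by lymphocytes: the receptor CD226 activates natural killer and T cells when it binds them, whereas TIGIT restrains those cells. The CADM proteins (also SynCAMs or nectin-like molecules) bind 4.1-family and PDZ scaffold proteins instead of afadin, and are known in the nervous system for joining the sides of a synapse and axons to glia.

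Fragments counted on genes were between 21463105 and 25350204 per library, and they are given below as counts, as CPM (counts scaled to library size after TMM normalisation) and, where genes are compared with each other, as RPKM (CPM per kilobase of exon). A gene was called higher or lower when edgeR's quasi-likelihood test gave an adjusted p-value under 0.001 over 16468 genes tested. The replicates of each group differed by more than the sampling noise. Of 12 markers of noradrenergic NB cells, 11 were above 1 CPM in both groups, with TH as the exception. In the treated cells 8 of the 11 tested markers were lower, beside 8.14% of all genes tested. The summed level of the 12 markers went from between 4944 and 5351 CPM to between 2982 and 3040 CPM. Of the mesenchymal markers, 3 of 7 tested were called lower (TWIST1, PDGFRA and PDGFRB), beside the same 8.14% of all genes tested. That list summed to 447 and 475 CPM with DMSO against 291 and 264 CPM with SGSS05-NS. COL1A2 was below both controls and not called (log2 fold change -2.24), and FN1 and COL3A1 overlapped between the groups. COL1A1 went the other way, above both controls in both treated libraries (0.41, not called). The part of these shifts in the values of the members was not tested. Lymphocyte and myeloid markers summed to at most 0.180 CPM in any library, and CD3E, CD3D, MS4A1 and NKG7 were at 0. KMT5A, which encodes SETD8, rose from 55.7 to 82.9 CPM by edgeR's quasi-likelihood test (adjusted p = 0.00037, log2 fold change 0.57, standard error 0.09), which does not measure the activity of the enzyme.

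SGSS05-NS-treated SY5Y cells carried more NECTIN4 and NECTIN2 RNA and less CADM1 and CADM2 RNA than DMSO-treated cells. NECTIN1, NECTIN3, PVR and CADM4 did not pass the threshold, and CADM3 had too few fragments to be tested. Of the 8 members tested, 2 were called higher, beside 6.37% of all genes tested, and 2 were called lower, beside 8.14% of all genes tested. Between the groups, 6 of the 8 did not overlap, beside 74.7% of all genes tested. Because the genes were chosen in view of this contrast, nothing is read from these shares. The median log2 fold change was 0.10 over the 8 members and 0.01 over all genes tested. In RNA from whole cultures, fewer expressing cells and less RNA per cell cannot be told apart.

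**Figure D1:**
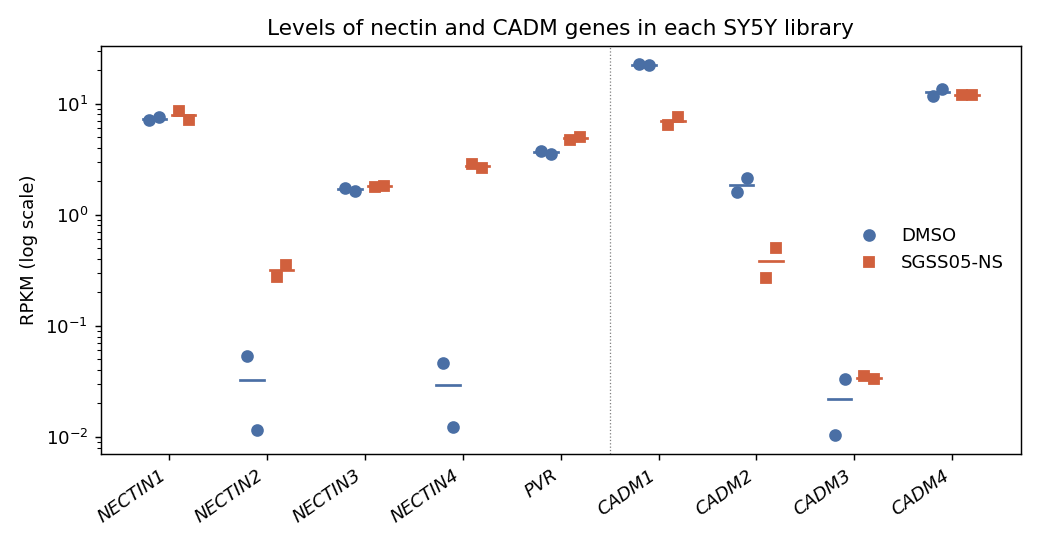
RPKM (log scale) of each gene in each library, with circles for the 2 DMSO libraries, squares for the 2 SGSS05-NS libraries and a line at each mean. NECTIN4 and NECTIN2 rise from near the bottom of the scale, and CADM1 and CADM2 fall. PVR lies slightly higher with SGSS05-NS (3.78 and 3.53 RPKM against 4.71 and 5.02 RPKM), and the remaining genes stay near their DMSO level.

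The promoter sequences of the 2 genes that rose are shown first, with that of CADM4, whose RNA stayed level, for comparison. Each is the stretch of 250 bases before the annotated transcript start, from RefSeq on GRCh38.p14, written 5′ to 3′ on the strand of the gene, with capitals at each GGGCGG (a GC box) or its reverse complement. NECTIN4 lies on the minus strand of chr1:161089559-161089808, NECTIN2 on the plus strand of chr19:44846047-44846296 and CADM4 on the minus strand of chr19:43639851-43640100.
NECTIN4: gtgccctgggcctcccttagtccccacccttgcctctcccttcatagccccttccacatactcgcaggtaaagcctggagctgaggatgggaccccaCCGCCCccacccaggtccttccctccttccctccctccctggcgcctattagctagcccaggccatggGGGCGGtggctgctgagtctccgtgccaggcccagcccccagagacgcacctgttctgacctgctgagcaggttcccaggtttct
NECTIN2: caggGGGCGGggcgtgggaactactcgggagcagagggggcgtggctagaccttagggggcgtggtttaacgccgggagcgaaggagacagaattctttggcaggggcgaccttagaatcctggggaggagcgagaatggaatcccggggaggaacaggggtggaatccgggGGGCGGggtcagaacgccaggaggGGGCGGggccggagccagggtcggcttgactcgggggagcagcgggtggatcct
CADM4: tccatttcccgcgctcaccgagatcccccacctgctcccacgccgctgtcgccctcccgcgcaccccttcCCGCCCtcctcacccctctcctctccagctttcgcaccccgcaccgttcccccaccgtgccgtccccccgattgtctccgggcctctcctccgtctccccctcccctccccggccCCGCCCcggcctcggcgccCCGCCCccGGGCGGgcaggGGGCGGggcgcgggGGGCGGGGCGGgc

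RefSeq windows, which run from 250 bases before to 50 bases after the start, were matched for 6 of the 9 genes (NECTIN2, NECTIN3, NECTIN4, PVR, CADM3 and CADM4), and NECTIN1, CADM1 and CADM2 had none. The NECTIN4 window stood apart in its CpG content. It held 10 CpG dinucleotides, with an observed-to-expected ratio of 0.318, whereas the other 5 held between 23 and 42 with ratios from 0.592 to 1.09, and the medians of all 35116 windows of the table were 14 and 0.579. Both strands of each window were searched for 7 motifs. The GC box GGGCGG was in the windows of NECTIN2, NECTIN3, NECTIN4 and CADM4 and in 45.0% of all windows, and some of the matches in CADM4 overlap. The cyclic AMP response element TGACGTCA, which reads the same on both strands, was in the NECTIN2 window, from base 2 to base 9 after the start, and in 1.85% of all windows. None of the 6 windows held the TATA box TATAAA, which 11.5% of all windows held. The same was so of the CCAAT motif (34.6% of all windows), of the AP-1 site TGAGTCA (4.95%), of the heat shock motif GAANNTTC (6.77%) and of the p53 half-site (6.63%). These matches are letters in a window and not measured sites.

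NECTIN4 (ENSG00000143217.7, chromosome 1 of GRCh37 from 161040788 to 161059348) encodes an adhesion molecule of epithelia and placenta that the measles virus uses as a receptor and that an approved antibody-drug conjugate targets in bladder cancer. With DMSO it had 4 and 1 fragments, and with SGSS05-NS it had 220 and 214. Both treated libraries were far above both controls and close to each other. In CPM the level went from 0.101 ± 0.0825 (SD, n = 2) to 9.51 ± 0.576 (SD, n = 2). Scaled counts stood in a ratio of 92.0, with an exact binomial 95% interval from 39.1 to 285 that covers counting error only. The fitted log2 fold change of 6.45 (standard error 0.35) was the 18th largest of the genes tested. It rests on 5 control fragments, and was 7.61 without DMSO replicate 1 and 5.83 without DMSO replicate 2. Of 10 epithelial markers, KRT5, KRT14, KRT8, CLDN4 and TP63 were at 0 in all libraries. The list summed to between 2.43 and 3.00 CPM with DMSO and between 3.51 and 4.55 CPM with SGSS05-NS. EPCAM alone was above 1 CPM, with means of 1.53 CPM with DMSO and 2.98 CPM with SGSS05-NS. CDH1 on the same list went the other way, from 11 and 11 fragments to 1 and 1, and KRT19 overlapped between the groups. EPCAM, CDH1 and KRT19 were not called.

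NECTIN2 (ENSG00000130202.5, chromosome 19 from 45349432 to 45392480), a ligand of CD226, TIGIT and PVRIG on lymphocytes, was nearly silent in the control cells as well. It had 5 and 1 fragments with DMSO and 23 and 31 with SGSS05-NS, so that the groups did not overlap but the treated level stayed low, at 1.18 ± 0.199 CPM (SD, n = 2). Scaled counts stood in a ratio of 9.54 (counting interval 4.11 to 27.1). The fitted log2 fold change was 3.20 (standard error 0.51). Its place past the threshold was not stable. It was lost with DESeq2 and without SGSS05-NS replicate 2 (log2 fold change 3.01), while the value was 4.61 without DMSO replicate 1 and 2.52 without DMSO replicate 2.

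PVR (ENSG00000073008.10, chromosome 19 from 45147098 to 45169430), the poliovirus receptor and the other main ligand of CD226 and TIGIT, was already well expressed. It had 988 and 861 fragments with DMSO and 1090 and 1232 with SGSS05-NS, or 39.4 and 36.9 CPM against 49.1 and 52.4 CPM. Both treated libraries were above both controls, an order that 37.8% of all genes tested showed. The log2 fold change of 0.41 (standard error 0.10) was past an adjusted p-value of 0.05 and not past the 0.001 used here. Among the CD226 ligands, then, the gene that passed 0.001 was the one with little RNA: with SGSS05-NS, PVR was at 4.87 RPKM and NECTIN2 at 0.315 RPKM.

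NECTIN1 and NECTIN3, whose proteins bind each other and form junctions between axons and dendrites, stayed near their control levels. NECTIN1 (ENSG00000110400.6, chromosome 11 from 119494120 to 119599910), also the entry receptor of herpes simplex virus, had 55.1 and 59.0 CPM with DMSO and 67.0 and 55.2 CPM with SGSS05-NS. The groups overlapped, the log2 fold change was 0.10 (standard error 0.11), and leaving out single libraries took it from -0.05 to 0.23. NECTIN3 (ENSG00000177707.6, chromosome 3 from 110788918 to 110994410) had 13.5 and 12.5 CPM with DMSO and 13.7 and 14.1 CPM with SGSS05-NS. Its treated libraries lay just above the controls, with a log2 fold change of 0.09 (standard error 0.13).

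CADM1 (ENSG00000182985.12, chromosome 11 from 115039938 to 115375675) encodes SynCAM 1, a synaptic adhesion molecule that is also known as a tumour suppressor, and it was the most abundant member in control cells. It had 6191 and 5754 fragments with DMSO and 1550 and 1957 with SGSS05-NS. Each treated library held less than each control by far more than the replicates differed, with 247 ± 0.323 CPM (SD, n = 2) against 76.5 ± 9.45 CPM (SD, n = 2). The log2 fold change was -1.69 (standard error 0.11), with values from -1.82 to -1.57 after any 1 library was removed. CADM1 was called lower in each of the 13 alternative fits in which it was run.

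CADM2 (ENSG00000175161.9, chromosome 3 from 85008140 to 86123579), another synaptic member, had 399 and 498 fragments with DMSO and 59 and 117 with SGSS05-NS. Both treated libraries were below both controls, and SGSS05-NS replicate 1 was the lower of the treated pair. The levels were 15.9 and 21.3 CPM against 2.66 and 4.97 CPM. The log2 fold change was -2.28 (standard error 0.24), with -2.80 without SGSS05-NS replicate 2 as the lowest value with a library left out and -1.91 as the highest. It had the 82nd most negative log2 fold change of all genes tested, and CADM1 the 366th.

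CADM3 and CADM4 did not follow. CADM3 (ENSG00000162706.8, chromosome 1 from 159141399 to 159173103), a member of neural tissue, had 1 and 3 fragments with DMSO and 3 and 3 with SGSS05-NS. That is no more than the 3 counts per library taken as the floor, so a difference was not detectable at this depth. CADM4 (ENSG00000105767.2, chromosome 19 from 44126520 to 44144002), known for holding axons and Schwann cells together, had 658 and 720 fragments with DMSO and 600 and 636 with SGSS05-NS. Its levels of 26.2 and 30.8 CPM against 27.0 and 27.0 CPM overlapped, and the log2 fold change was -0.08 (standard error 0.12).

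Scaled for exon length, the order of the members changed between the groups. With DMSO it ran from CADM1 (22.5 RPKM) over CADM4 (12.6), NECTIN1 (7.30), PVR (3.66), CADM2 (1.86) and NECTIN3 (1.69) to NECTIN2, NECTIN4 and CADM3, all under 0.04 RPKM in mean. CADM2 and NECTIN3 overlapped, and so did the last 3 genes in turn. With SGSS05-NS CADM4 came first (12.0 RPKM), followed by NECTIN1 (7.82) and CADM1 (6.97), which overlapped, PVR (4.87), NECTIN4 (2.75), NECTIN3 (1.80), CADM2 (0.382) and NECTIN2 (0.315), which overlapped, and CADM3 (0.0341). NECTIN4 thus stood above NECTIN3 in both treated libraries. When the longest transcript was used as the length, CADM2 and NECTIN3 changed places with DMSO, CADM2 and NECTIN2 changed places with SGSS05-NS, and NECTIN4 and NECTIN3 overlapped.

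The CADM genes made up 73.8% and 75.0% of the summed RPKM of the 9 genes with DMSO and 50.6% and 54.3% with SGSS05-NS. CADM1 alone went from 46.5% and 44.01% to 17.3% and 20.5%. The share of CADM4 went from 24.0% and 26.8% to 32.5% and 32.4% while its own levels overlapped between the groups and the total went from 48.4 and 51.0 RPKM to 36.8 and 36.98 RPKM. NECTIN4 went from under 0.1% to 7.78% and 7.11%. The summed RPKM of the nectin genes and PVR was 12.7 in each DMSO library and 18.2 and 16.9 with SGSS05-NS, and that of the CADM genes was 35.7 and 38.3 against 18.6 and 20.1.

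**Figure D2:**
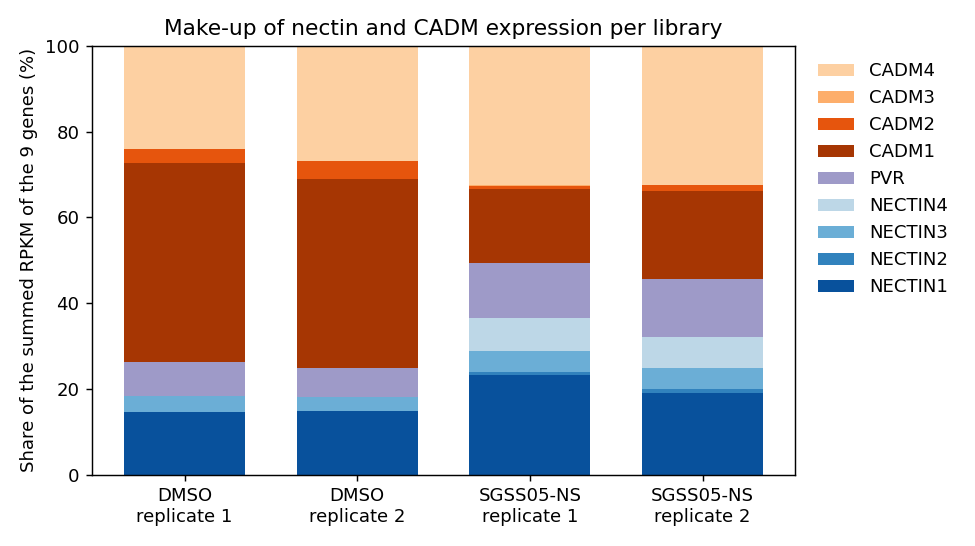
Share of each gene in the summed RPKM of the 9 genes (percent, stacked to 100) for each library. The CADM genes (orange) shrink from 73.8% and 75.0% of the bar with DMSO to 50.6% and 54.3% with SGSS05-NS, mostly through CADM1, and NECTIN4 appears as a visible band only in the SGSS05-NS libraries.

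The members that fell were also the members with the longest genes. CADM1 spans 336 kb and CADM2 1115 kb, whereas NECTIN4 spans 18.6 kb, CADM4 17.5 kb, PVR 22.3 kb, NECTIN2 43.0 kb, NECTIN1 106 kb and NECTIN3 205 kb. Among the 16042 tested genes with an annotated span, long genes were lower as a whole. Of the 572 genes from 300 to 1000 kb, 54.7% were called lower, with a median log2 fold change of -1.03, and of the 49 genes over 1000 kb, 42.9% were called lower, with a median of -1.12. Below 20 kb 4.56% were called lower, with a median of 0.13. CADM1 had a more negative value than 85.0% of the genes in its span class, and CADM2 a more negative value than 89.8% of its class. NECTIN1 and NECTIN3 are long as well. Genes from 100 to 200 kb had a median of -0.27 and genes from 200 to 300 kb one of -0.57, with 37.5% of the latter called lower, so NECTIN3 had a more positive value than 89.6% of its class and NECTIN1 than 79.6%. NECTIN4 was exceeded by 14 of 7081 genes of its class and NECTIN2 by 34 of 3715. The part of gene length in the change of any member was not tested.

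**Figure D3:**
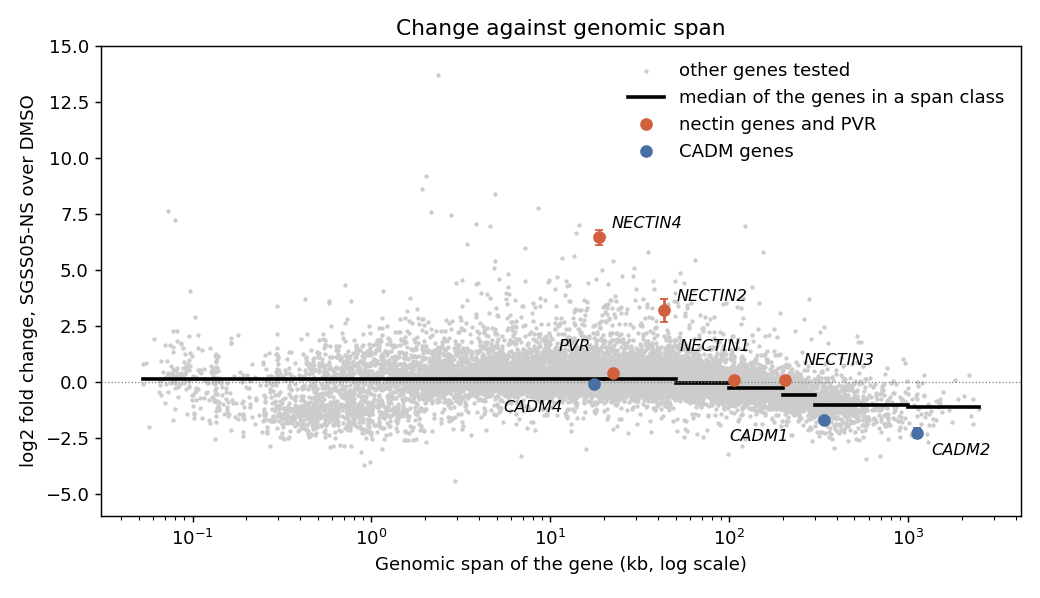
log2 fold change of SGSS05-NS over DMSO against genomic span (kb, log scale) for the genes tested; orange points are nectin genes and PVR, blue points CADM genes, bars their standard errors, and black lines the median of each span class. The medians drop from 0.13 below 20 kb to about -1 above 300 kb, where CADM1 and CADM2 lie below the line, while NECTIN4 and NECTIN2 lie far above the line of their classes.

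Genes that overlap or adjoin the members were listed to see what else the counts could hold. On the strand opposite to a member, reads were rare: between 0 and 21 fragments per library at any of the 9 genes, with the most at CADM4 (10 and 13 with DMSO, 15 and 21 with SGSS05-NS). Annotated antisense genes held few fragments too, with USP2-AS1, opposite NECTIN1, the most counted at 16 to 25. ARHGAP30, a gene on the same strand as NECTIN4 that begins 1028 bases beyond its 3′ end, had 4 and 1 fragments with DMSO and 22 and 15 with SGSS05-NS (adjusted p = 0.0014 by edgeR, not past 0.001, log2 fold change 2.91, standard error 0.56). KLHDC9, on the other side of NECTIN4, had a log2 fold change of -0.28 (adjusted p = 0.67 by edgeR, standard error 0.50). CEACAM19 overlaps the end of PVR on the same strand, where a fragment within both genes is not assigned to either, and had 11 and 2 fragments with DMSO and 21 and 24 with SGSS05-NS (adjusted p = 0.0095 from edgeR's test). The pseudogene THAP12P2, inside CADM2 and on its strand, had 9 and 11 fragments with DMSO and 3 and 1 with SGSS05-NS. TOMM40, which begins 1346 bases beyond NECTIN2, went the other way from its neighbour without passing the threshold. Its log2 fold change was -0.12 (adjusted p = 0.29 by edgeR, standard error 0.09). The nearest protein-coding genes on either side of CADM1 and CADM2 lie far off. BUD13 is 1243211 bases from CADM1, and GBE1 3197344 bases from CADM2 on the opposite strand. Their log2 fold changes of -0.06 and -0.02 did not pass. NXPE2 and VGLL3, on the other sides, had too few fragments to be tested.

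Of 18 genes for afadin and the adherens junction, 0 were higher and 5 lower, beside 6.37% and 8.14% of all genes tested, with a median log2 fold change of -0.38. DESeq2 and limma voom also called 0 higher, and at an unadjusted p-value under 0.05 edgeR had 1 higher and 13 lower. The share of all genes at that looser cut is not given here, so nothing is read from the unadjusted counts. The 5 were PARD3, CDH2, LMO7, MPDZ and CTNNA2. All were named after their values were seen, with PARD3, CDH2 and LMO7 taken for the smallest p-values of the list. PARD3, a polarity scaffold that binds nectins, fell from 87.3 to 37.7 CPM by edgeR's quasi-likelihood test (adjusted p = 3.6e-05, log2 fold change -1.21, standard error 0.14). CDH2, which encodes N-cadherin, went from 143 to 82.7 CPM (-0.79, adjusted p = 9.4e-05 by edgeR, standard error 0.10), and LMO7, which links afadin to alpha-actinin, had -1.08 (adjusted p = 0.00013 by edgeR, standard error 0.15). AFDN, the gene of afadin itself and chosen after its value was seen, was at 105 CPM with DMSO and 86.2 CPM with SGSS05-NS (log2 fold change -0.28, adjusted p = 0.048 by edgeR, standard error 0.11), which did not pass. CDH1, the gene of E-cadherin, also chosen after its counts were seen, had 11 and 11 fragments with DMSO and 1 and 1 with SGSS05-NS and was not called (adjusted p = 0.0018 from edgeR's test). The 5 genes that fell span at least 173987 bases each, and the median span of the list was 160 kb.

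Of 12 genes that carry the nectin signal to the small GTPases Rap1, Cdc42 and Rac, 2 were lower and 0 higher. Among all genes tested, 8.14% were lower and 6.37% higher. DESeq2 and limma voom also called 2 lower and 0 higher. At an unadjusted p-value under 0.05 edgeR had 3 higher and 4 lower, again without the share of all genes at that cut, so nothing is read from this. The 2 called lower were TIAM1, a Rac exchange factor (adjusted p = 2.4e-06 by edgeR, log2 fold change -1.50, standard error 0.12), and VAV2 (-0.76, adjusted p = 7.3e-05 by edgeR, standard error 0.10). TIAM1 spans 441557 bases and VAV2 230711. Of all tested genes in their span classes, 54.7% (300 to 1000 kb) and 37.5% (200 to 300 kb) were called lower. RAPGEF1, an exchange factor for Rap1, had -0.48 (adjusted p = 0.0025 by edgeR, standard error 0.10) and was called lower in 6 of 14 alternatives: the likelihood ratio test, no filter, the replicate block, a threshold of 0.05, without DMSO replicate 1 (-0.56) and without SGSS05-NS replicate 1 (-0.58).

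Of 17 scaffold genes that meet the tails of CADM proteins, 14 were tested. Of these 1 was higher and 5 were lower, beside 6.37% and 8.14% of all genes tested. The median log2 fold change of the list was -0.27. CASK, a PDZ scaffold of the synapse that binds CADM1, went from 56.6 to 23.9 CPM (adjusted p = 8.2e-06 by edgeR, log2 fold change -1.24, standard error 0.12), and APBA1, its partner in a presynaptic complex, had -1.50 (adjusted p = 0.00028 by edgeR, standard error 0.23). DLG4, which encodes the postsynaptic scaffold PSD-95, rose from 15.1 to 26.4 CPM (0.81, adjusted p = 0.00016 by edgeR, standard error 0.11). CASK spans 408621 bases, APBA1 244840 and DLG4 32655. The others called lower, named after their values were seen, were EPB41, DLG1 and FARP1, which span 232956, 256771 and 312615 bases. Of all tested genes from 300 to 1000 kb, the class of CASK and FARP1, 54.7% were called lower. From 200 to 300 kb, the class of APBA1, EPB41 and DLG1, 37.5% were. EPB41L3, the 4.1 protein first linked to CADM1, had 3 fragments in SGSS05-NS replicate 1 and 0 in the other libraries.

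The lymphocyte receptors that read nectins, PVR and CADM1 were hardly counted: CD226, TIGIT, CD96, PVRIG and CRTAM had at most 6 fragments in any library, and none was tested. Other ligands by which stressed cells engage natural killer cells were examined beside PVR and NECTIN2. Of 10 such genes 4 were tested, and 2 were higher, beside 6.37% of all genes tested. ULBP1, a ligand of the activating receptor NKG2D, had 5 and 9 fragments with DMSO and 152 and 168 with SGSS05-NS (adjusted p = 5.0e-07 by edgeR, log2 fold change 4.57, standard error 0.30). ULBP3 had 8 and 5 fragments against 25 and 29 (2.12, adjusted p = 0.00098 by edgeR, standard error 0.39), just past the threshold, and it was no longer called when any single library was left out, where it ranged from 1.85 to 2.43. ULBP2 had 9 and 2 against 33 and 11 (2.07, adjusted p = 0.020 by edgeR, standard error 0.64) and was not called, but it was called in 5 of 13 alternatives: with no filter (2.04), with the replicate block (2.12), at a threshold of 0.05, without DMSO replicate 1 (3.41) and without SGSS05-NS replicate 2 (2.69). NCR3LG1, the remaining gene tested and named after its value was seen, had more RNA than the ULBP genes. It went from 33.0 to 42.1 CPM (log2 fold change 0.35, adjusted p = 0.0225 by edgeR, standard error 0.11) and was not called. MICA, RAET1E and RAET1L were listed at 0 in all libraries.

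Of 9 genes for the proteases that shed and cleave nectins and CADM1, 0 passed the threshold in edgeR's quasi-likelihood test, beside 14.5% of all genes tested. ADAM10, which sheds nectin-1 and CADM1, had a log2 fold change of -0.44 (adjusted p = 0.0054 by edgeR, standard error 0.11). DESeq2 and limma voom called 0 as well. At an unadjusted p-value under 0.05 edgeR had 2 lower and 1 higher, from which nothing is read without the share of all genes at that cut. Among 27 other immunoglobulin superfamily adhesion genes 21 were tested, 8 were lower and 0 higher, beside 8.14% and 6.37% of all genes tested. The list had a median log2 fold change of -0.63 and a median span of 194 kb. DESeq2 and limma voom called 0 higher too. Here edgeR had 3 higher and 14 lower at an unadjusted p-value under 0.05, and nothing is read from these counts for the same reason. CNTN4 (-2.04, adjusted p = 6.3e-07 by edgeR, standard error 0.14), NRCAM (-1.34, adjusted p = 2.3e-06 by edgeR, standard error 0.11) and CNTN1 (-1.62, adjusted p = 5.2e-06 by edgeR, standard error 0.14), all of them axonal, had the smallest p-values. Whether the nectin and CADM genes differ from this list was not tested.

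**Figure D4:**
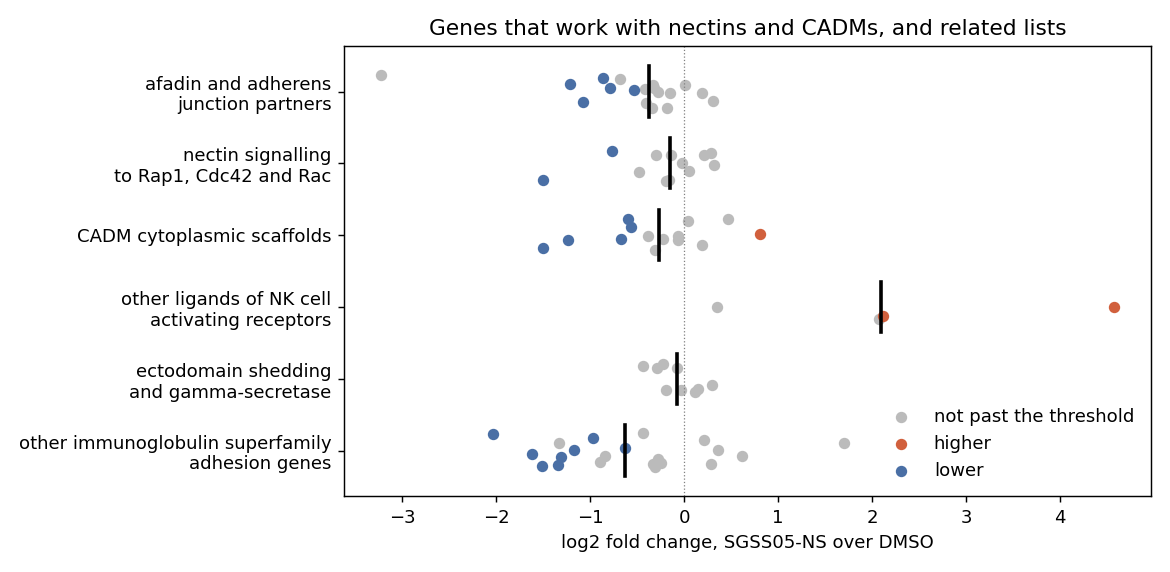
log2 fold change of SGSS05-NS over DMSO for the tested genes of each list (1 point per gene, spread vertically for visibility), with orange for genes called higher, blue for genes called lower, grey for the rest and a black line at the median of the list. The called genes of the junction, signalling and other adhesion lists all lie left of 0, DLG4 is the only called scaffold gene to the right, and the called natural killer ligands lie right of 0.

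The genes whose pattern over the 4 libraries lay nearest to the members with the largest rise and fall were found by the root mean square difference of log2(CPM + 0.5), centred on the DMSO mean of each gene. Nearest to NECTIN4 were BTG2 (difference 0.13), FAS (0.15) and SESN2 (0.26). They rose from 5.79 to 91.9, from 0.533 to 14.5 and from 6.92 to 97.6 CPM, and the added 0.5 makes the rise of the low NECTIN4 and FAS genes look smaller than it is. Nearest to CADM2 were CNTNAP5 (0.09), LINGO2 (0.10) and PLXNA4 (0.11), neural cell-surface genes that span 895933, 1275985 and 525349 bases. With groups of 2 libraries, such likeness mostly reflects the size of the difference between the groups.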

How the data were processed

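RNA of 4 SY5Y libraries was sequenced. Per the labels and the study's methods, the authors used Trimmomatic 0.30 for trimming and STAR 2.4.2a for alignment (hg19, GENCODE) and deposited a table of raw fragment counts for each library, not normalized or pooled. Of the 3 columns of counts, the reverse-strand column was used, since the forward column held at most 5.05% of fragments on genes; the labels name a TruSeq RNA kit and the methods a stranded one. Fragments mapping to several places were not counted. The 4 summary rows were left out. Counted without regard to strand, fragments assigned to no gene made up 11.8% to 12.0% with DMSO and between 14.7% and 15.5% with SGSS05-NS.

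GENCODE 44 on GRCh37, joined on gene identifiers, gave positions, spans and lengths and matched 55538 of 57820 rows; lengths may differ from the annotation used for counting. Counts were filtered with filterByExpr, scaled by TMM and tested with edgeR 4.0.16 (R 4.3.3), quasi-likelihood, Benjamini-Hochberg adjustment and the study's threshold of 0.001. The standard error is the log2 fold change divided by the square root of F. Intervals cover counting error only, since PCR reads are not independent molecules. All 9 members were named, with the 3 smallest p-values of each list, overlapping and adjacent genes, KMT5A, and the 3 nearest patterns; CDKN1A, also chosen, went from 17.4 to 447 CPM. The members, lists and motifs were chosen with earlier results of these data known. Alternatives were the likelihood ratio test that the study names, DESeq2 1.42.0, limma 3.58.1 voom, other scalings and filters, a replicate block, unstranded counts, a threshold of 0.05 and single libraries left out. The fit was tested on simulated data.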

Additional observations from a re-analysis of the deposited data

Results flagged for a closer look

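Fragments on the strand opposite to NECTIN3, in a column that the comparisons do not use, numbered 1 and 0 with DMSO and 5 and 3 with SGSS05-NS, 8 in all with the compound. The exact binomial interval of their ratio, which covers counting error only, had a lower bound of 1.14. The replicates differed by more than counting error over all genes, and NECTIN3 was the only 1 of 9 genes examined with a bound above 1, so a difference between the groups is not shown.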

How the results depend on the processing

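Members called higher numbered 1 with DESeq2, 0 with at least 10 counts in every library (NECTIN4 and NECTIN2 were then not tested) and 1 to 2 with single libraries left out; NECTIN2 was lost with DESeq2 (log2 fold change 3.26) and without SGSS05-NS replicate 2. Under the other alternatives both were called. CADM1 and CADM2 were called lower under every alternative run. CADM3 could be fitted only with no filter, with a log2 fold change of 0.61 that was not called.

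Over all genes, the likelihood ratio test called 2022 higher and 2267 lower, no filter 2034 and 2570, a threshold of 0.05 3728 and 3903, and the replicate block 1759 higher, in place of 1049 and 1341; with single libraries left out there were 1037 to 1279 higher and 1322 to 1649 lower. The libraries share only a replicate number (correlation of deviations 0.06 for number 1), and the block changed no call of a member.

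Junction genes called lower numbered 9 with no filter and 13 at 0.05, where 1 was higher, and 4 to 6 with libraries left out. Signalling genes called lower numbered 3 with the likelihood ratio test, no filter and the replicate block, 2 to 3 with libraries left out, and 4 at 0.05, where 1 was higher. Scaffold genes called lower numbered 3 with library size only, and at 0.05 EPB41L1 and PALS2 were called lower as well. Natural killer ligands called higher numbered 1 with DESeq2, voom, library size only and unstranded counts. They numbered 0 with 10 counts in every library and 4 at 0.05. With no filter and with the replicate block ULBP2 was called as well. Shedding genes numbered 1 higher and 2 lower at 0.05, 1 lower with no filter and 0 to 1 lower with libraries left out. Other adhesion genes called higher numbered 1 with the likelihood ratio test and with no filter, 2 with the replicate block, 3 at 0.05 and 0 to 2 with libraries left out, and 13 were lower at 0.05. The cause of these differences was not tested. Of the single-gene values, 325 kept their call, 10 lost it and 16 gained it. A fit without a library assumes that the lone sample varies like the other group. Low counts limit what can be said of CADM3, NECTIN2 and the lymphocyte receptors, each with few fragments.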
